A study of Mus musculus with 14 samples.

Results

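Transcripts uc008opl.2 and uc008tlz.1 are 2 of 63244 quantified in mouse carotid artery. They were chosen because, among transcripts higher with the drug rosiglitazone, they had the smallest p-values for the response averaged over both genotypes. Their drug responses are therefore given as a description, with no test. The series holds 14 RNA sequencing libraries of carotid artery from male C57BL/6J mice. The WT libraries came from mice with intact Rbp7, 3 after the solvent DMSO and 3 after rosiglitazone, and the KO libraries from Rbp7 knockout mice, 4 after DMSO and 4 after rosiglitazone. Rosiglitazone was given at 10 µM and both exposures lasted 24 h. The labels disagree on whether excised arteries or living mice were exposed. Not given in the sources used here are the making of the knockout, the age of the mice and whether replicates came from separate animals, so p-values measure only the variation among these libraries, which may be technical.

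Rosiglitazone is a thiazolidinedione, a synthetic ligand of the nuclear receptor PPARγ. Liganded PPARγ binds DNA together with the retinoid X receptor and raises the transcription of its target genes, many of which serve fatty acid uptake, transport and storage. In the vessel wall the receptor is present in endothelium and smooth muscle and is known for its influence on vascular tone. Rbp7 encodes retinol-binding protein 7, which carries retinoids in the cytosol, and the series asked how its loss changes gene expression under the drug.

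The table names transcripts by UCSC-style identifiers only. The gene tables used here paired 0 of 63244 identifiers with a gene symbol, so both transcripts are called by identifier, without a gene name, a role or a sequence. For the same reason neither the level of Rbp7 in the KO libraries nor markers of arterial cell types were checked. Values are TPM, a share of the library that is scaled to transcript length and to a fixed total per library and keeps no read depth. Log2 fold changes were computed as log2(TPM + 1). Both KO libraries of replicate number 4 stood apart. Their 2 most abundant transcripts held between 33.2% and 37.5% of all TPM, against 41.8% to 48.8% in the other 12 libraries, and they listed 26716 to 27686 transcripts at 1 TPM or more, against 23996 to 26179. A further split runs through the KO libraries, whose sample numbers are 2 to 5 for replicates 1 and 2 and 18 to 21 for replicates 3 and 4. All WT libraries are numbered 6 to 11, so genotype and sample number cannot be told apart.

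Transcript uc008opl.2 was already among the more abundant transcripts without the drug and was several-fold higher with it in WT, and less so in KO. In the WT DMSO libraries it measured 71.6, 82.5 and 109 TPM in replicates 1 to 3. In the WT rosiglitazone libraries it measured 557, 427 and 397 TPM. The groups did not overlap, and the lowest drug library lay 288 TPM above the highest DMSO library. Such a separation upward was found in WT for 842 of 29304 tested transcripts (2.87%), and since the transcript was chosen on its drug response nothing is read from it. In bulk tissue, more cells of one type and more RNA per cell cannot be told apart, which holds for every level given here.

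In KO arteries uc008opl.2 measured 116, 121, 67.9 and 53.1 TPM in DMSO replicates 1 to 4. With rosiglitazone it measured 218, 277, 135 and 118 TPM. These groups overlapped narrowly, because KO rosiglitazone replicate 4 lay just below KO DMSO replicate 2. The overlap arose between libraries from different sample number ranges, and within each range both drug libraries lay above both DMSO libraries. The share of tested transcripts with this order within ranges was not counted. As uc008opl.2 was chosen on its drug response, nothing is read from the order.

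In WT the mean of uc008opl.2 was 87.7 ± 19.2 TPM without and 460 ± 84.7 TPM with rosiglitazone (SD over 3 libraries per group). In KO it was 89.4 ± 34.0 TPM without and 187 ± 74.4 TPM with the drug (SD over 4 libraries per group). From highest to lowest the order was thus WT rosiglitazone, KO rosiglitazone, KO DMSO and WT DMSO. The last 2 groups did not differ beyond their spread, and KO rosiglitazone and KO DMSO touched as described. Ranked among all transcripts of a library, uc008opl.2 moved from places 595 to 963 in WT DMSO to places 92 to 141 in WT rosiglitazone. In KO it moved from places 512 to 1736 to places 212 to 603.

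**Figure D1:**
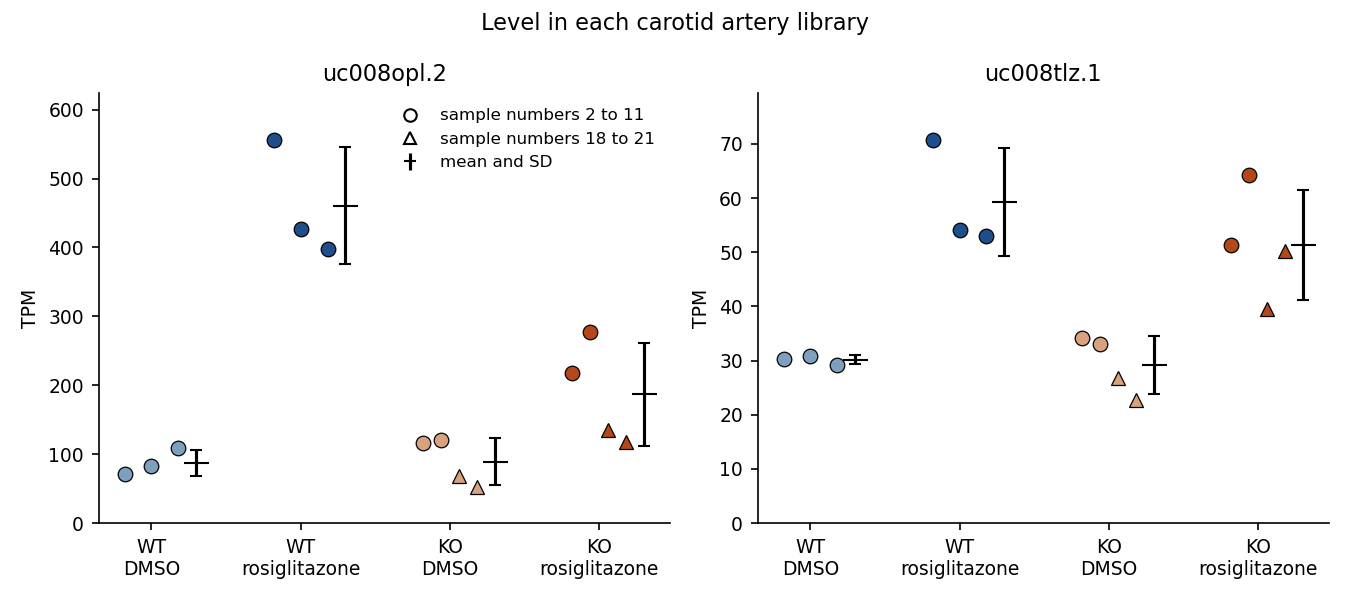
TPM of uc008opl.2 (left) and uc008tlz.1 (right) in each library by group, with circles for sample numbers 2 to 11, triangles for 18 to 21, and bars for the mean and SD of each group. The WT rosiglitazone libraries of uc008opl.2, at 397 to 557 TPM, lie above every KO rosiglitazone library (118 to 277 TPM), whereas for uc008tlz.1 the WT (52.9 to 70.8 TPM) and KO (39.6 to 64.3 TPM) drug libraries overlap.

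Transcript uc008tlz.1 was less abundant, and with the drug its mean was 1.97-fold higher in WT and 1.76-fold higher in KO. In WT DMSO it measured 30.4, 30.8 and 29.3 TPM in replicates 1 to 3, a spread of 2.66% of the mean. In WT rosiglitazone it measured 70.8, 54.1 and 52.9 TPM. The drug group of WT was wider than its DMSO group, with replicate 1 well above the other two, and the groups were 22.1 TPM apart at their nearest points.

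In KO, uc008tlz.1 measured 34.1, 33.0, 26.8 and 22.8 TPM in DMSO replicates 1 to 4. In KO rosiglitazone it measured 51.3, 64.3, 39.6 and 50.2 TPM. Unlike for uc008opl.2, these 8 values did not overlap between treatments, and the nearest libraries were 5.43 TPM apart. Upward separation in KO was found for 152 of 29304 tested transcripts (0.519%), and in both genotypes together for 29 (0.0990%), which again only describes a transcript chosen for this pattern.

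In WT the mean of uc008tlz.1 was 30.2 ± 0.80 TPM without and 59.3 ± 10.0 TPM with the drug (SD over 3 libraries per group), and in KO 29.2 ± 5.35 and 51.3 ± 10.1 TPM (SD over 4 libraries per group). The ranges of both drug groups overlapped, and so did those of both DMSO groups. Every drug library lay above every DMSO library across genotypes, in a transcript chosen on its drug response. The share of tested transcripts with this order across genotypes was not counted, so nothing is read from it. In rank it moved from places 2685 to 3074 to places 1010 to 1406 in WT, and from places 2528 to 4687 to places 1215 to 1971 in KO.

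Libraries of the same genotype and replicate number were then set side by side, as 3 WT and 4 KO pairs. The labels do not say that a number marks an animal, so these ratios describe the spread and were not used as paired data. For uc008opl.2 the ratio of rosiglitazone to DMSO was 7.78, 5.18 and 3.65 in WT replicates 1 to 3. It was 1.88, 2.29, 1.98 and 2.22 in KO replicates 1 to 4. The KO ratios had a mean of 2.09 ± 0.19 (SD, n = 4), against 5.53 ± 2.09 (SD, n = 3) in WT. All KO ratios lay below the WT ratios. The share of tested transcripts with such an order was not counted, so nothing is read from it. The width of the WT ratios came from both sides, since WT replicate 1 had the lowest DMSO and the highest drug value and replicate 3 the highest DMSO and the lowest drug value.

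For uc008tlz.1 the ratio was 2.33, 1.75 and 1.81 in WT replicates 1 to 3. In KO it was 1.50, 1.95, 1.48 and 2.20 in replicates 1 to 4. The WT and KO ratios were interleaved, with means of 1.96 ± 0.32 (SD, n = 3) and 1.78 ± 0.35 (SD, n = 4). Both transcripts were higher with the drug in all 7 pairs, as were 202 of 29304 tested transcripts (0.689%).

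**Figure D2:**
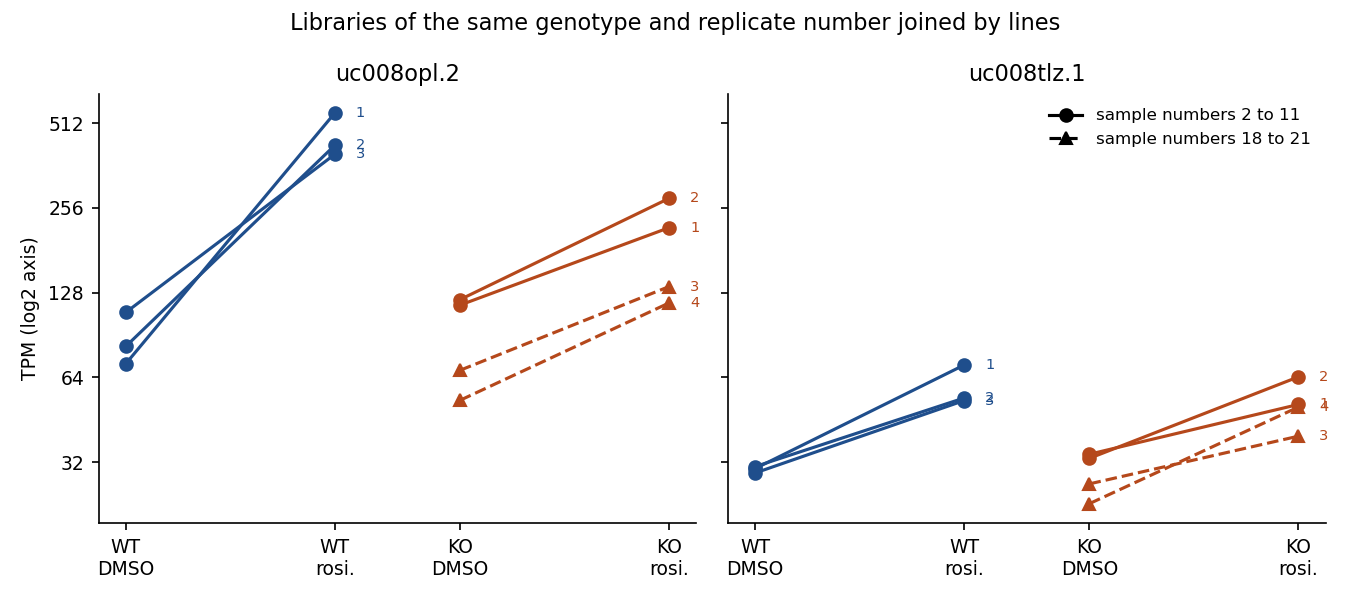
TPM of both transcripts on a log2 axis, with lines joining the DMSO and rosiglitazone libraries of the same genotype and replicate number (small digits) and dashed lines for sample numbers 18 to 21. The lines of uc008opl.2 are steeper in WT (ratios 3.65 to 7.78) than in KO (1.88 to 2.29). Its KO lines for sample numbers 18 to 21 lie below those for 2 to 5.

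The share of the WT drug difference that was seen in KO was smaller for uc008opl.2 than for uc008tlz.1. With the drug the mean level of uc008opl.2 was higher by 373 TPM in WT and by 97.4 TPM in KO, which is 26.1% of the WT difference. On the log2 scale the WT response was 2.39 (SE 0.35) and the KO response 1.05 (SE 0.30), which is 44.1%. For uc008tlz.1 the difference was 29.1 TPM in WT and 22.2 TPM in KO, or 76.1%, and on the log2 scale 0.94 (SE 0.19) and 0.79 (SE 0.16), or 84.3%.

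The difference of the responses between genotypes was tested as an interaction with limma over all 29304 tested transcripts, of which 2 passed an adjusted p of 0.05 (0.00683%). For uc008opl.2 the KO response was smaller than the WT response, by a log2 difference of -1.33 (SE 0.46, 95% interval -2.33 to -0.34), with an unadjusted p of 0.0122 and an adjusted p of 1.00 by limma. By p it took place 145 among the tested transcripts, so the difference failed the correction although its own interval did not reach 0. For uc008tlz.1 the interaction was -0.15 (SE 0.24, 95% interval -0.68 to 0.38, adjusted p = 1.00 by limma). Leaving out 1 library moved it from -0.26 (without KO rosiglitazone replicate 2, and likewise without KO DMSO replicate 4) to -0.015 (without WT rosiglitazone replicate 1), and it was -0.03 without KO rosiglitazone replicate 3, -0.07 without KO DMSO replicate 1 and -0.08 without KO DMSO replicate 2. The interval over all libraries holds both an equal response and a KO response smaller by 0.5 log2 units.

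Without the drug the mean levels of both genotypes were close. In DMSO, limma called 15 of 29304 transcripts between KO and WT (0.0512%), and neither uc008opl.2 nor uc008tlz.1 was among them. For uc008opl.2 the difference of KO from WT was -0.03 on the log2 scale (SE 0.33, 95% interval -0.74 to 0.67, adjusted p = 0.995 by limma). For uc008tlz.1 it was -0.06 (SE 0.17, 95% interval -0.44 to 0.31, adjusted p = 0.992 by limma). As a ratio of KO to WT the first interval spans 0.60 to 1.59 and the second 0.74 to 1.24, so DMSO levels of uc008opl.2 were compared with less precision.

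With rosiglitazone the KO libraries of uc008opl.2 all lay below those of WT and the libraries of uc008tlz.1 overlapped between genotypes, but neither difference passed the correction. The mean of uc008opl.2 in KO was 40.6% of that in WT, and its highest KO library lay 120 TPM below its lowest WT library. Every KO drug library lay below every WT drug library for 399 of 29304 tested transcripts (1.36%). The log2 difference of uc008opl.2 was -1.37 (SE 0.33, 95% interval -2.07 to -0.67), with an unadjusted p of 0.000991 and an adjusted p of 0.631 by limma, place 46 by p in a comparison with 12 calls (0.0410%). The mean of uc008tlz.1 in KO was 86.6% of that in WT, a log2 difference of -0.21 (SE 0.17, 95% interval -0.58 to 0.16, adjusted p = 1.00 by limma).

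Dividing one transcript by the other within a library gives a value that no rescaling of that library can change. The ratio of the TPM of uc008opl.2 to that of uc008tlz.1 was 2.36, 2.67 and 3.72 in WT DMSO replicates 1 to 3. It was 7.86, 7.90 and 7.50 in WT rosiglitazone. The WT drug libraries thus gave nearly the same ratio although their levels differed, with a mean of 7.75 ± 0.22 (SD, n = 3). In KO the ratio was 3.39, 3.67, 2.53 and 2.33 in DMSO replicates 1 to 4 and 4.25, 4.31, 3.40 and 2.34 in rosiglitazone. The KO drug libraries, with a mean of 3.58 ± 0.92 (SD, n = 4), overlapped those of KO DMSO, with 2.98 ± 0.65 (SD, n = 4), and stayed below every WT drug library. This ratio was formed after the values had been seen and has no test.

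**Figure D3:**
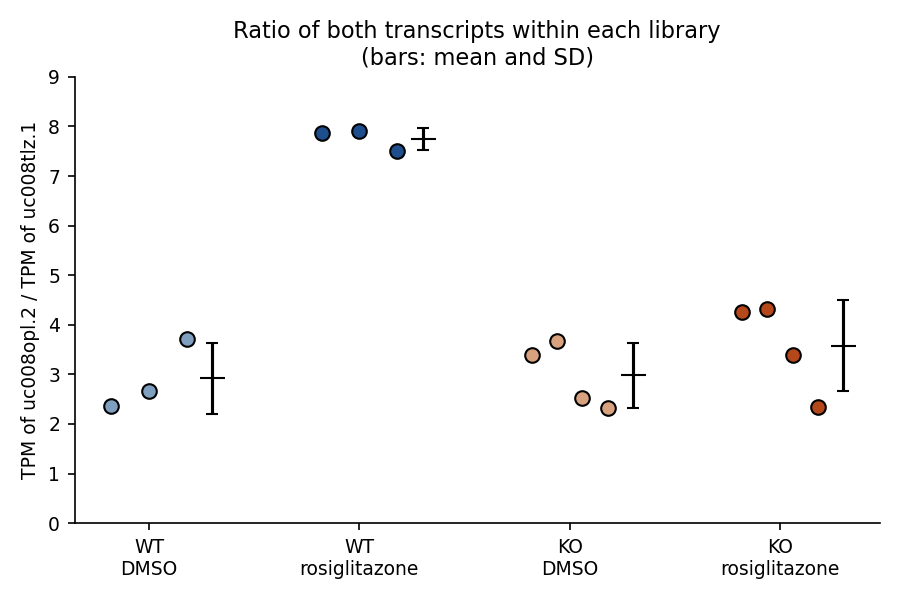
Ratio of the TPM of uc008opl.2 to the TPM of uc008tlz.1 in each library (points) with the mean and SD of each group (bars). The 3 WT rosiglitazone libraries sit at 7.50 to 7.90, and the other 11 libraries lie between 2.33 and 4.31.

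Within KO both transcripts were lower on average in the libraries numbered 18 to 21, and the difference passed the correction only for uc008opl.2. In DMSO, uc008opl.2 averaged 118 TPM in the libraries numbered 2 to 5 and 60.5 TPM in those numbered 18 to 21, and in rosiglitazone 247 and 126 TPM. With the number range as a term beside the group means, the later libraries were lower, by a log2 difference of -0.96 (SE 0.15, adjusted p = 0.0155 by limma). That term was called for 140 of 29304 transcripts (0.478%). The labels do not say what the numbers mean. For uc008tlz.1 the averages were 33.6 and 24.8 TPM in DMSO and 57.8 and 44.9 TPM in rosiglitazone, and the term did not pass (-0.39, SE 0.12, adjusted p = 0.189 by limma). Both libraries numbered 2 to 5 lay above both numbered 18 to 21 in each treatment for 933 of 29304 transcripts (3.18%). Both transcripts did so too.

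Averaged over 2 libraries per treatment and range, the drug response within KO moved little between the ranges. For uc008opl.2 the ratio of mean levels was 2.09 in both ranges (log2 1.05 and 1.06), and for uc008tlz.1 it was 1.72 and 1.81 (log2 0.76 and 0.83). Same-number ratios of uc008tlz.1 differed more within a range, at 1.50 and 1.95 in the earlier and 1.48 and 2.20 in the later. Comparisons between genotypes did move. Without the 4 later libraries the log2 difference of KO from WT for uc008opl.2 was 0.45 in DMSO and -0.89 in rosiglitazone, while its interaction stayed at -1.34. For uc008tlz.1 these values were 0.15, -0.03 and -0.18. Without only the KO libraries of replicate number 4, the interaction was -1.36 for uc008opl.2 and -0.25 for uc008tlz.1, and none of these values passed the threshold.

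**Figure D4:**
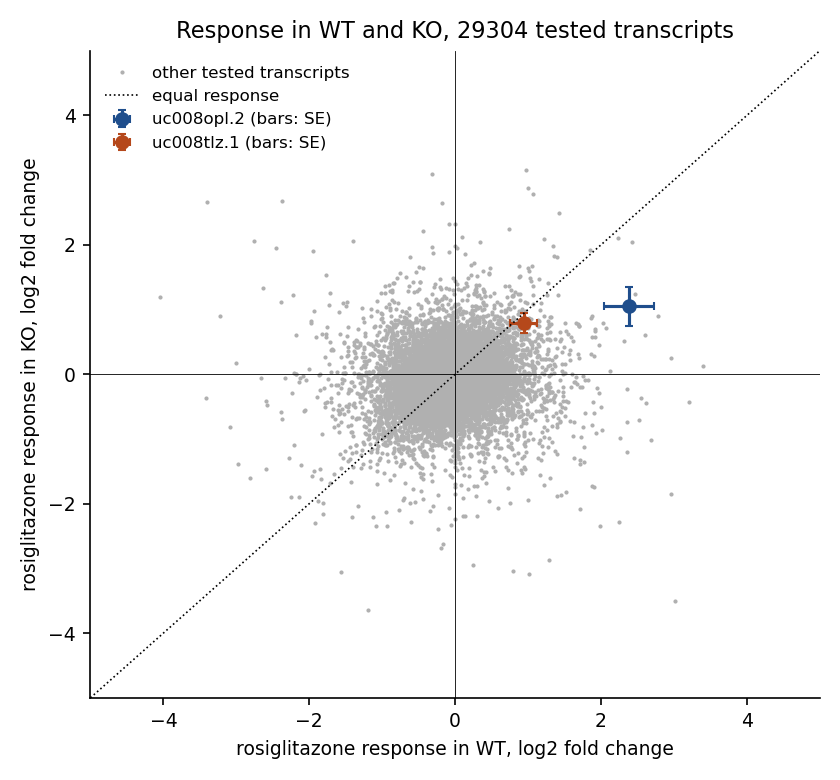
Log2 fold change with rosiglitazone in WT (horizontal) and KO (vertical) for all 29304 tested transcripts in grey, with uc008opl.2 and uc008tlz.1 coloured and their SE as bars. Transcript uc008tlz.1 lies near the dotted line of equal response (0.94 and 0.79), and uc008opl.2 lies below it (2.39 and 1.05).

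Against the whole table, the WT response of uc008opl.2 was the 14th highest log2 fold change of 29304 and its KO response took place 179. For uc008tlz.1 these places were 374 and 393. The median over all tested transcripts was -0.05 in WT and -0.09 in KO. The 2 transcripts next in line by p among those higher on average were uc007zzd.2 and uc008fwf.2. Transcript uc007zzd.2 had an average log2 fold change of 0.79 (SE 0.13) and uc008fwf.2 one of 0.49 (SE 0.08), against 1.72 (SE 0.23) for uc008opl.2 and 0.87 (SE 0.12) for uc008tlz.1. Like uc008tlz.1, both had similar values in WT (0.87 and 0.44) and KO (0.71 and 0.55).

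The transcripts whose pattern was most like that of each were then sought by Pearson's r of log2(TPM + 1) over the 14 libraries. The libraries share treatment, genotype and sample number, so these values are descriptions. The 2 transcripts correlated with each other at r = 0.91 (Spearman's rho 0.95), and at r = 0.81 after the group means had been removed. Removing group means leaves the split within KO, where both transcripts were lower in the libraries numbered 18 to 21. In WT DMSO the orders differed, with replicate 3 highest in uc008opl.2 (109 TPM) and lowest in uc008tlz.1 (29.3 TPM). Transcript uc007bir.2 came first for both, with r = 0.92 for uc008opl.2 and 0.94 for uc008tlz.1. It had between 41.7 and 55.7 TPM in the DMSO libraries of both genotypes and between 57.3 and 75.8 TPM with the drug, a log2 fold change of 0.48 in WT and 0.39 in KO.

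Of the 5 transcripts most like uc008opl.2, uc009saj.1 and uc007dfo.2 shared the larger WT response. Transcript uc009saj.1 (r = 0.89) had at most 0.55 TPM in WT DMSO, 3.37 to 5.05 TPM in WT rosiglitazone and at most 0.90 TPM in any KO library. It thus reached 1 TPM only in the WT rosiglitazone libraries and passed the filter through that group alone. Transcript uc007dfo.2 (r = 0.87) had 0.55 to 0.97 TPM in WT DMSO and 2.56 to 5.24 TPM in WT rosiglitazone, and in KO 1.01 to 1.42 and 1.20 to 3.16 TPM. The interactions were -1.56 (SE 0.36) and -0.93 (SE 0.36) on the log2 scale, both in transcripts far less abundant than uc008opl.2. Both were chosen for their likeness to uc008opl.2, and the filter kept uc009saj.1 only for its WT drug group, so nothing is read from these values. The other two were abundant and had closer responses in both genotypes. They were uc008liw.2 (r = 0.87), with a log2 fold change of 0.70 (SE 0.25) in WT and 0.46 (SE 0.21) in KO, and uc007bhn.2 (r = 0.87), with 0.43 (SE 0.18) and 0.31 (SE 0.15).

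The other 4 most like uc008tlz.1 were uc009enk.1 (r = 0.92), uc008vvv.1 (r = 0.90), uc008fwf.2 (r = 0.90) and uc008bzp.2 (r = 0.88). All 4 were higher with the drug in all 7 pairs. Their log2 fold changes ran from 0.44 to 1.26 in WT and from 0.50 to 1.22 in KO. The widest response was that of uc008bzp.2, which went from 16.6 to 20.0 TPM in the WT DMSO libraries to 29.3 to 62.2 TPM with the drug, and in KO from 12.3 to 19.8 TPM to 20.6 to 46.4 TPM. Their interactions lay between -0.07 and 0.10, against -0.15 for uc008tlz.1. Rows chosen for a like pattern share such traits by that choice, so nothing is read from them.

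Rows with neighbouring identifiers had drug responses nearer to 0 or below it. Around each transcript the 10 identifiers before and the 10 after it in sorted order were taken, without regard to their values and with no claim on where they lie in the genome. Of the 20 around uc008opl.2, 9 were high enough to be tested, and of the 20 around uc008tlz.1, 10 were. In the average drug response limma called 0 of these 19, where it called 1 of 29304 over the whole table (0.00341%), and 1 in each neighbourhood had an unadjusted p under 0.05 (6.37% of all tested transcripts). Limma also called 0 of the 19 in the other comparisons, in WT (background 0.00341%), in KO (0.0137%), in the interaction and between genotypes. An unadjusted p under 0.05 was found for 1 row in each neighbourhood in WT (3.51% of all tested transcripts) and for 0 in KO (4.50%). In the interaction (2.14%) and between genotypes in DMSO (3.63%) and in rosiglitazone (2.89%) it was found for 1 row around uc008tlz.1 and 0 around uc008opl.2. Their average log2 fold changes ran from -0.51 to 0.02 around uc008opl.2 and from -0.59 to 0.17 around uc008tlz.1.

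The 3 most abundant tested rows near uc008opl.2 were uc008opo.2, uc008opv.1 and uc008opg.2, all far below it. Transcript uc008opo.2 ranged over 14.5 to 16.0 TPM in WT DMSO and 12.8 to 17.6 TPM in WT rosiglitazone. Transcript uc008opv.1 differed with the drug by -0.51 on the log2 scale when averaged over genotypes (SE 0.16, adjusted p = 0.606 by limma). It was lower in all 7 pairs, but the share of tested transcripts lower in all pairs was not counted. The identifiers directly beside uc008opl.2 were too low to be tested.

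Near uc008tlz.1 the most abundant rows were uc008tme.1, uc008tlw.2 and uc008tmb.2. Transcript uc008tme.1 had a mean of 655 ± 29.5 TPM without and 679 ± 27.9 TPM with the drug in WT (SD over 3 libraries per group), and of 650 ± 35.4 and 692 ± 67.8 TPM in KO (SD over 4). It was far more abundant than uc008tlz.1 and differed by 0.07 on the log2 scale with the drug when averaged over genotypes (SE 0.06, adjusted p = 0.915 by limma). The row directly after uc008tlz.1, uc008tmb.2, ranged over 19.9 to 23.7 TPM in WT DMSO and 20.9 to 23.9 TPM in WT rosiglitazone.

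**Figure D5:**
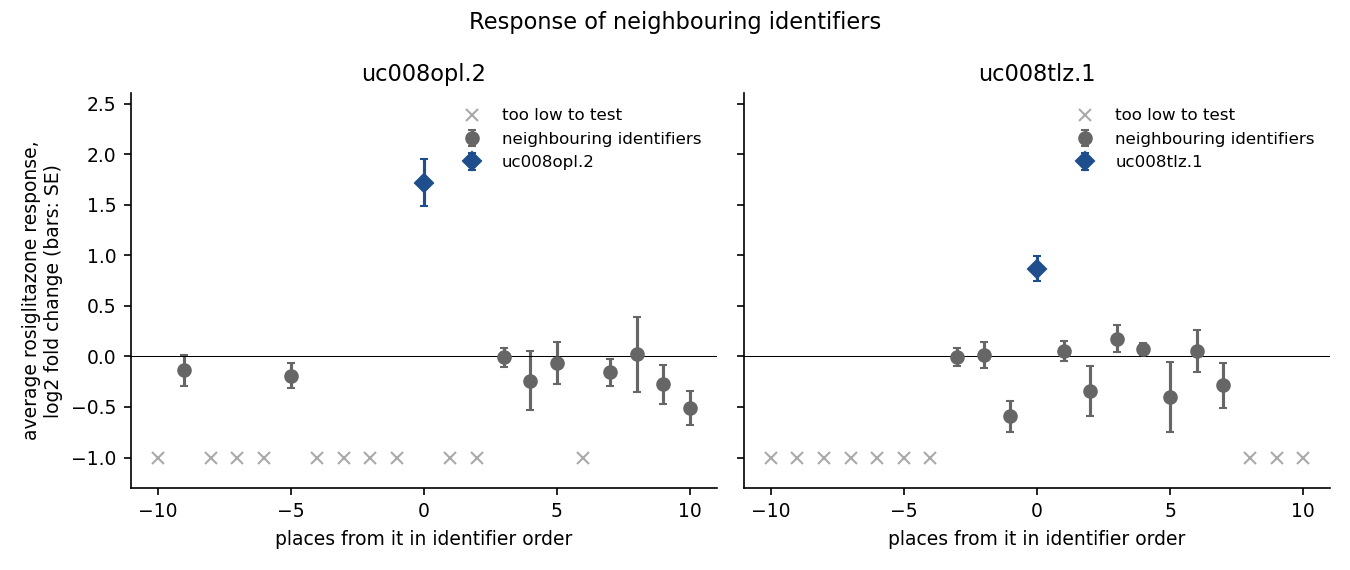
Average log2 fold change with rosiglitazone (points, bars for SE) of tested rows up to 10 places before or after uc008opl.2 (left) and uc008tlz.1 (right) in identifier order, with crosses at a fixed height for rows too low to test. The 2 transcripts stand at 1.72 and 0.87, and the tested rows around them lie between -0.59 and 0.17.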

How the data were processed

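RNA was sequenced in 14 carotid artery libraries. The authors deposited 1 table of TPM values for 63244 transcripts. Per the submitters' processing notes, the tools were FastQC, kallisto and sleuth. The same notes name mm10 and GRCm38 as builds. Not given in the sources used here are versions, annotation, trimming and strand. As estimates, TPM values split reads that similar transcripts share. TPM keeps no depth, so no counting interval is given. Each column header is a sample number that the labels also carry.

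A transcript was tested if 3 or more libraries had 1 TPM or more (29304). Group means of log2(TPM + 1) over all libraries were fitted with limma 3.58.1 (R 4.3.3) and an abundance trend in the variance. Benjamini-Hochberg adjustment ran over all 29304, with a threshold of 0.05, and intervals are limma's at 95%. The fit was checked on simulated independent values, without a sample number split. The planted changes were larger than the interactions and genotype differences given for both transcripts, so changes of that size were not covered. Plots used matplotlib 3.10.9 (Python 3.11.15).

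The members, lists and tests were chosen with earlier results of these data known. Named were the 5 most correlated transcripts per member, the 3 most abundant tested rows among its 20 neighbours, any neighbour with a call, and the 2 transcripts next in line by p. Of 30 PPARγ targets and 31 cell type markers, listed by symbol, 0 were found among the identifiers. Alternatives varied the pseudocount, filter, scaling, variance model, weights, groups fitted, replicate block, number range and libraries. The fit without both KO libraries of replicate number 4 was chosen after seeing the data.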

Additional observations from a re-analysis of the deposited data

How the results depend on the processing

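Over 14 other settings and 14 fits that each left out 1 library, the drug responses of both transcripts kept their sign and moved by less than the spread between libraries. The interaction kept its sign and did not pass in any of them (adjusted p from 0.346 to 1.00 for uc008opl.2 by limma), nor did any difference between genotypes. The DMSO difference of KO from WT, close to 0, turned positive for uc008opl.2 with library weights (0.13), the sample number range as a covariate (0.45), without the libraries numbered 18 to 21 (0.45) and with both KO libraries of replicate number 4 left out (0.19). For uc008tlz.1 these values were 0.019, 0.13, 0.15 and 0.045. Leaving out 1 library moved this difference between -0.21 and 0.19 for uc008opl.2, positive without WT DMSO replicate 3 (0.13), KO DMSO replicate 3 (0.07) or KO DMSO replicate 4 (0.19), and between -0.14 and 0.045 for uc008tlz.1, positive without KO DMSO replicate 4. With the range covariate the rosiglitazone difference was -0.89 for uc008opl.2 and -0.02 for uc008tlz.1, and without WT rosiglitazone replicate 1 the latter was -0.08. Deviations of same-numbered libraries from their group means correlated over 0.1 in 4 of 7 pairs (0.07 to 0.22), and 5 of 7 correlated best with their own number. The main fit left the numbers out because the labels do not say that they mark animals, and not because of this check. With the number as a fixed block, the SE of the uc008opl.2 drug response was 0.18 in WT and 0.15 in KO. As reported, it was 0.35 and 0.30. With the replicate block the interaction of uc008opl.2 was again -1.33 (adjusted p = 0.845 as a fixed and 0.783 as a random term, limma) and that of uc008tlz.1 -0.15. Calls over all transcripts moved more. For the average drug response there was 1, against 0 to 9 when 1 library was left out and up to 74 with the random replicate block (1 with the fixed one). Over all other settings the calls ran from 1 to 7 for the drug in WT (1 as reported), 0 to 13 in KO (4), 1 to 7 for the interaction (2), 12 to 21 between genotypes in DMSO (15) and 9 to 17 in rosiglitazone (12), and down to 9 and 2 for the last 2 when 1 library was left out. The depth behind each value is unknown.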

Other observations

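The row directly before uc008tlz.1 in identifier order, uc008tly.1, was singled out after its values had been seen. In WT replicates 1 to 3 it measured 4.73, 4.47 and 4.99 TPM without the drug and 2.00, 1.24 and 1.97 TPM with it. The drug libraries were the lower ones. How many tested transcripts separate downward in this way was not counted, so nothing is read from the separation. In KO its mean was 2.79 ± 0.77 TPM without and 2.53 ± 0.84 TPM with the drug (SD over 4 libraries per group). The log2 fold change was -1.08 (SE 0.23, adjusted p = 0.882 by limma) in WT and -0.11 (SE 0.20, adjusted p = 0.974 by limma) in KO, and the interaction was 0.97 (SE 0.31, adjusted p = 1.00 by limma), so none of these passed. The sum of uc008tly.1 and uc008tlz.1 was 34.9 ± 0.55 TPM without and 61.0 ± 10.2 TPM with the drug in WT (SD over 3 libraries per group), and 32.0 ± 5.82 and 53.9 ± 9.83 TPM in KO (SD over 4). Whether reads shared between the 2 rows enter these values was not tested.

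The spread of uc008opl.2 within groups was wide for its abundance. Its SD pooled over the groups was 0.48 on the log2 scale. The median was 0.19 over 334 tested transcripts within 0.5 log2 units of its mean level, of which 90.7% had a lower SD. By group, the SD of uc008opl.2 was 0.30 in WT DMSO and 0.26 in WT rosiglitazone. It was 0.58 in each KO group, which holds both sample number ranges. For uc008tlz.1 the pooled SD was 0.24 against a median of 0.20 over 1734 transcripts, of which 63.1% had a lower SD. In 42 sets of 4 KO values, covering the named transcripts and their ratios, 0 held a library whose gap to its nearest neighbour passed Dixon's critical value, where chance gives about 1 in 20. Where KO values split by sample number range, as for both transcripts, a test for 1 library apart can hardly flag any. Nothing is therefore read from this count.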
